A study of Mus musculus with 36 samples.

Results

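The genes examined here were the very long protein-coding genes of the mouse autosomes, those of at least 500 kb from start to end in the GENCODE M1 annotation of mm9 (NCBIM37). Lpp was left out by the rule that chose them. This gave 187 of 21418 genes, 103 on the plus strand and 84 on the minus strand, with lengths between 502 kb and 4435 kb (median 731 kb, against 15.5 kb over all 21418 genes). In 180 of the 187 at least 1 transcript alone spanned 500 kb. The others, such as Arhgap26, Atp8a2 and Rgs6, reached that length only over several transcripts. No member overlapped another, and their bodies covered 8089 bins of 20 kb, or 6.54% of the autosomal bins. The rule used length and no replication timing, and it was set with earlier results of these data known.

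Replication timing (RT) is the order in which parts of the genome are copied during S phase. Early replication usually accompanies gene-rich, GC-rich and transcribed chromatin, and late replication gene-poor chromatin. Very long genes owe their length to introns, many of them encode cell adhesion molecules, synaptic scaffolds and ion channels of neurons, and several lie at common fragile sites, which break when replication is slowed and which tend to replicate late.

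The study profiled RT by Repli-seq in B cells, in 36 libraries of 7 groups, with BrdU-labelled DNA recovered from cells sorted from early and late S phase. The results below use the group of CH12 cells, a line from a mouse B cell lymphoma, that carried the control shRNA shLacZ and was stimulated with IL4, CD40 and TGF beta, and the group of WT primary B cells (priB), taken from mice. The study describes its primary B cells for Repli-seq as activated cells of the spleen. The labels give no age or strain for these mice, and print the CH12 culture conditions for the primary cells too. Each group had 4 libraries, 2 from each fraction of S phase, and the authors merged them into 1 domain map of early (E), middle (M) and late (L) replicating states per group. A further deposited map is named for WT mouse embryonic fibroblasts (MEF); the labels tie no sample to it, so its cells are known here from its name, and the study's data list takes its MEF Repli-seq from another data set. Cell type and data set therefore cannot be told apart in any comparison of MEF with B cells. No map of the other 5 groups was analysed here. The maps hold no expression, so the labelled cell types could not be checked against markers.

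A map gave each 20 kb bin 1 of 3 states, and a gene was described by the bins whose centers lay in its body. With 1 map per cell type there is no replicate error and no test between cell types. Wilson 95% intervals below count genes, cover counting error only, and do not include any error of the maps, whose read depth is unknown. The main state of a gene is the state with the most bins. Earlier and later mean steps in the order E, M, L. The states were fitted on each map separately, and the maps differed in their share of L over all autosomal bins, which was 48.7% in CH12, 38.1% in priB and 28.5% in MEF, so each share over long genes is set beside the same share over the genome.

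To show what the starts of these genes look like, the 250 bases before the annotated start of 4 genes follow, 5′ to 3′ on the strand of the gene, with each CG dinucleotide in capitals. They stand for the kinds of gene described below: Rad51l1 (E in every bin of the 3 maps), Kalrn (earlier in priB than in CH12), Cdh18 (earlier in MEF than in both B cell maps) and Ryr2 (later in MEF than in both).
Rad51l1, early in 3 maps, chr12:80398088-80398337, plus strand: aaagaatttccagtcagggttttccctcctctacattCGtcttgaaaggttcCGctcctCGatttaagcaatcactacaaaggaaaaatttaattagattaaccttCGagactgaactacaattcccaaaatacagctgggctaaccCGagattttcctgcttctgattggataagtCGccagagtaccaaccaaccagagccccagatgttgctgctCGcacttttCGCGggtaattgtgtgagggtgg
Kalrn, earlier in priB, chr16:34573619-34573868, minus strand: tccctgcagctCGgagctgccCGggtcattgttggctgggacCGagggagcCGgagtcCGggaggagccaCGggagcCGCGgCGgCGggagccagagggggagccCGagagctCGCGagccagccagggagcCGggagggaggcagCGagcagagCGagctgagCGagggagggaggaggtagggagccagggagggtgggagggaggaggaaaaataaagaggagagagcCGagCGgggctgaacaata
Cdh18, earlier in MEF, chr15:22478527-22478776, plus strand: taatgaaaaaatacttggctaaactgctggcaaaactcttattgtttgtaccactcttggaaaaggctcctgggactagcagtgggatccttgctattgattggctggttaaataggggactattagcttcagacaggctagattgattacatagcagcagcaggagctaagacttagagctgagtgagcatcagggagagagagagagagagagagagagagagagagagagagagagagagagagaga
Ryr2, later in MEF, chr13:12199213-12199462, minus strand: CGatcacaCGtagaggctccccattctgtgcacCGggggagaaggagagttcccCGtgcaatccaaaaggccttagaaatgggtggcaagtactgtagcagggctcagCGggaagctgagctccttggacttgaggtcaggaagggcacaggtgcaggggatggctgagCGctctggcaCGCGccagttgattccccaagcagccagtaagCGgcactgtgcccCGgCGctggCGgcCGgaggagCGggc

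Rad51l1, early throughout, had 9 CG in its 250 bases and a GC content of 44.8%. Kalrn had 19 CG and Ryr2 had 14. Cdh18 had 0, and its sequence ended in a run of GA repeats. Over the 187 genes the median was 12 CG (range 0 to 44), and 109 genes (58.3%) had at least 10, against 47.6% of all 21418 genes. CG reads the same on both strands, so 1 search covers both.

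Very long genes were mostly late replicating in both B cell maps, whereas in MEF L was the most frequent state but held under 50% of their bins. In CH12 cells 78.0% of their bins were L, 17.0% M and 4.98% E, against 48.7% L, 27.6% M and 23.7% E over all autosomal bins. In priB cells 64.3% were L, 27.5% M and 8.20% E. In MEF 47.2% were L, 42.6% M and 10.3% E. In each map the L share over long genes was above that of the autosomal bins outside them, which was 46.6% in CH12, 36.2% in priB and 27.2% in MEF.

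Part of the E share came from 3 gene models that hold other genes, with 255 of 403 E bins in CH12, 289 of 663 in priB and 327 of 832 in MEF. Gm20388 (chr8:122434741-126869622, 1 transcript), Fgfr2 (chr7:137305965-140315033) and Arfip1 (chr3:84300015-85691438) each contained 5 or more other protein-coding genes, whereas no other member contained more than 2. Without these 3 the E share fell to 1.94% in CH12, 4.89% in priB and 6.60% in MEF, and the L share was 81.7%, 68.1% and 49.9%. The body of Gm20388 in CH12 began with 1180 kb of E, went through 400 kb of M and ended with 2840 kb of E, and in MEF all of its 4420 kb were E. Fgfr2, a receptor for fibroblast growth factors, changed state 7 times along its model in CH12, the most of any member. These 3 models are kept in the counts below unless said otherwise.

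Counted by gene, L was the main state of 153 of 187 genes in CH12 (81.8%, Wilson 95% interval 75.7 to 86.7%), against 21.4% of all protein-coding autosomal genes. M was the main state of 32 (17.1%, against 26.7%), and E of 2 (1.07%, against 51.4%). In priB 121 genes were mainly L (64.7%, interval 57.6 to 71.2%, against 12.7%), 56 mainly M (29.9%, against 28.2%) and 9 mainly E (4.81%, against 58.7%). In MEF 89 were mainly L (47.6%, interval 40.6 to 54.7%, against 11.1%), 86 mainly M (46.0%, against 28%) and 11 mainly E (5.88%, against 60.5%). The MEF map thus had about as many mainly M as mainly L long genes, while both B cell maps had more mainly L genes.

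The L share did not climb evenly with gene length (see the plot of states by length class). In CH12 it was 20.1% of bins in genes under 50 kb, 16.3% at 50 to 100 kb, 26.7% at 100 to 200 kb and 46.5% at 200 to 500 kb, before the 78.0% of the long genes. In priB the same classes had 12.1%, 7.54%, 13.5% and 31.3%, and in MEF 11.2%, 5.51%, 7.46% and 16.7%. In each map the lowest share was therefore in genes of 50 to 100 kb. Within the long genes, and without the 3 models that hold other genes, bins of the 97 genes of 500 to 750 kb were L in 73.8% of cases in CH12, 56.9% in priB and 35.6% in MEF. For the 45 genes of 1000 kb or more these shares were 90.9%, 81.3% and 65.6%. Across 184 genes, the L share of a gene correlated with its length with a Spearman coefficient of 0.09 in CH12, 0.21 in priB and 0.31 in MEF, a description over genes that share a map, are not independent and also differ in GC content.

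**Figure D1:**
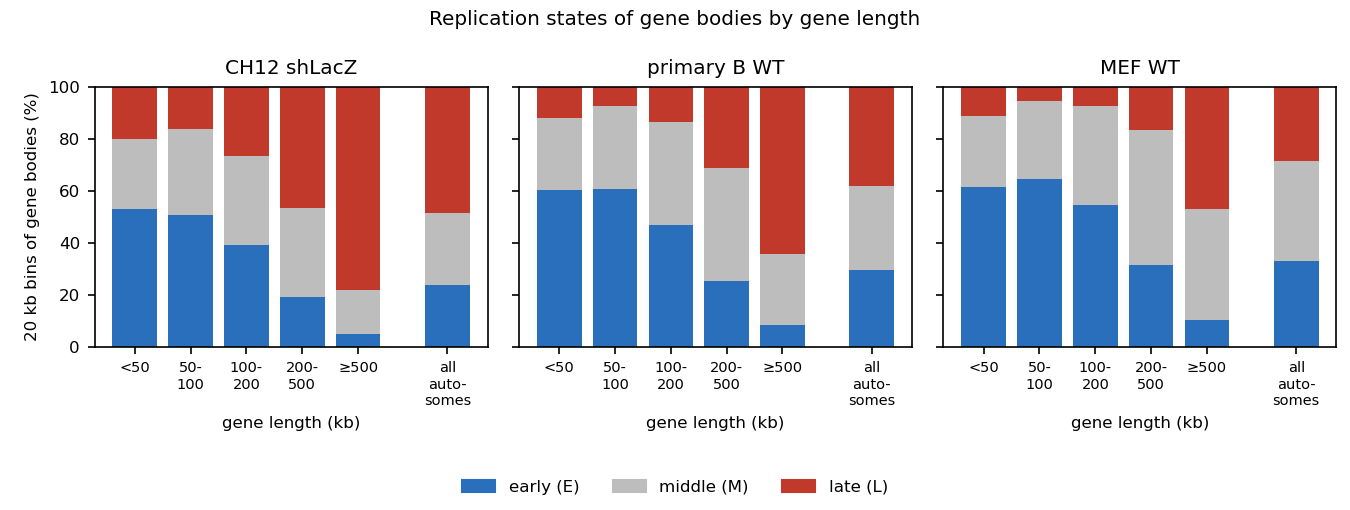
Share of 20 kb bins (%) in state E (blue), M (grey) and L (red) for gene bodies in 5 length classes (kb) and for all autosomal bins, in the CH12 shLacZ, primary B WT and MEF WT maps. The class of 500 kb or more has the tallest red part in each map, at 78.0%, 64.3% and 47.2%; there are no error bars because each bar comes from 1 map.

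At the length threshold itself the genes differed. The 3 shortest members were Edil3 (502 kb), Dock1 (503 kb) and Car10 (504 kb), and all 3 were L throughout in CH12. The 3 longest genes left outside were Dnm3 (496 kb), E throughout in CH12 and in MEF, Ank3 (493 kb), M throughout in CH12, and Abca13 (492 kb), 45.8% L in CH12. These genes are given only as the neighbours of the threshold.

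Of the 187 genes, 26 were L in every bin of the 3 maps, 3 were M in every bin and 1 was E in every bin. The 5 longest of the wholly L genes were Ptprd, a receptor tyrosine phosphatase of synapses (2271 kb), Lrp1b, of the LDL receptor family (2058 kb), Csmd1 (1643 kb) and Csmd3 (1211 kb), transmembrane proteins with CUB and sushi domains, and Cntn5, a contactin adhesion molecule (1244 kb). The 3 wholly M genes were Odz4, a teneurin (740 kb), Atp8a2, a phospholipid flippase (550 kb), and Rgs6, a regulator of G protein signalling (542 kb). The 1 gene that was E throughout was Rad51l1, a protein of DNA repair by homologous recombination (506 kb, chr12:80398338-80904257). It lay inside an E domain of 2700 kb in CH12, the only E domain of that map that held a whole member.

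The other genes among the 10 longest were L over most of the body in both B cell maps. Cntnap2, a neurexin family protein of axons (2241 kb), was L but for its last 120 kb in CH12, its last stretches of 280 kb of M and 40 kb of E in priB and its last 240 kb in MEF. Macrod2, a hydrolase of ADP-ribose marks (1998 kb), was L throughout in both B cell maps, whereas in MEF its first 1380 kb were M. Dlg2, a postsynaptic scaffold (1945 kb), was L save for its first 20 kb in CH12, had 180 kb of M at each end in priB, and had 280 kb of M at its start and 560 kb of M at its end in MEF. Nrxn3, a presynaptic neurexin (1612 kb), was L throughout in both B cell maps and held a stretch of 440 kb of M in MEF. Fhit, a hydrolase of dinucleoside polyphosphates (1612 kb), had the opposite layout in B cells, with L at both ends and M inside, of 340 kb in CH12 and 760 kb in priB.

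**Figure D2:**
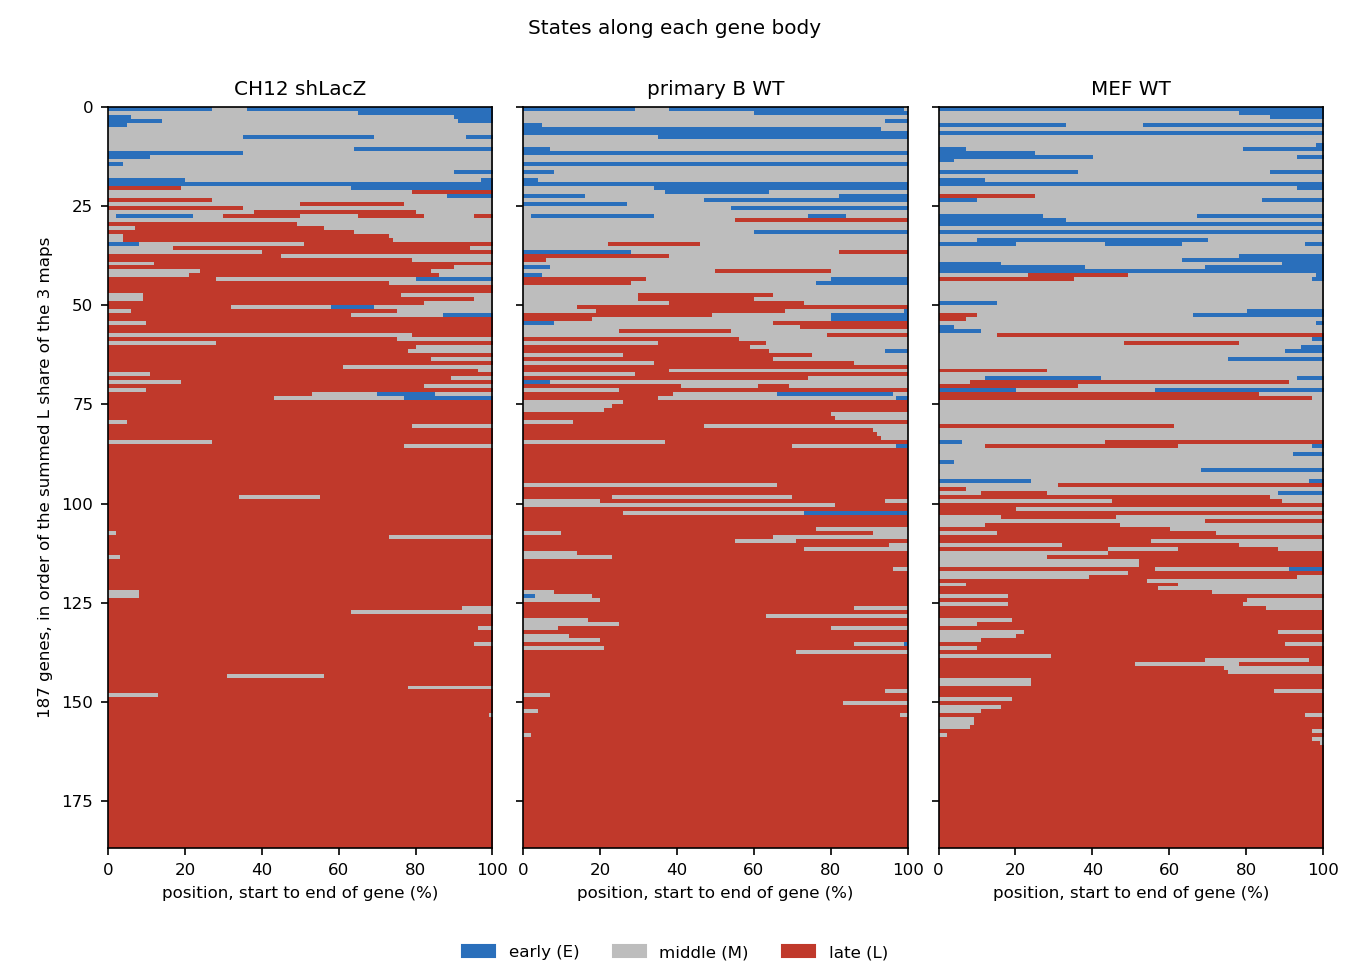
States along the bodies of the 187 genes (rows) from start to end (%), in the 3 maps, with E in blue, M in grey and L in red; rows have the same order in each panel, by the L share summed over the maps. Red fills most rows of the CH12 panel and fewer rows of the MEF panel, and 26 rows are red throughout in all 3 panels.

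Despite their length, 111 genes in CH12 kept to 1 state, 102 of them L, 8 M and 1 E. The other 76 (40.6%, interval 33.9 to 47.8%) held over 1 state, against 3.31% of all genes, most of which are shorter than a few bins. In priB 98 genes (52.4%, interval 45.3 to 59.4%) held over 1 state, against 3.27%, and in MEF 105 (56.2%, interval 49.0 to 63.1%), against 2.93%. Measured per length, long genes held 0.68 state edges per Mb in CH12, against 0.99 per Mb of autosomes, and 0.85 against 1.02 in priB. In MEF long genes held 0.90 edges per Mb and the autosomes 0.83, an order that turned with a length limit of 750 kb (0.78) or 1000 kb (0.82). Genes of 200 to 500 kb had 1.30, 1.23 and 1.03 edges per Mb in CH12, priB and MEF. In all, 43 long genes held over 1 state in each of the 3 maps and 38 held 1 state in each.

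No edge inside a long gene went straight between E and L in any map, and neither did any over the autosomes. From start to end of the gene, CH12 had 47 steps from L to M and 33 from M to L, 17 from M to E and 13 from E to M. The median edge lay 160 kb from the nearer end of its gene in CH12 and in MEF and 180 kb in priB, and 64.5%, 63.0% and 57.7% of edges lay within 200 kb of an end. In CH12, 101 genes lay whole inside 90 L domains of 800 to 13300 kb, each longer than its gene by construction. The longest of these, chr16:65040001-78340000, held 2 members, Cadm2 and Robo2, both encoding adhesion proteins and named here as the pair in that domain.

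Late replication was highest inside the bodies and lower toward both ends and in the flanks (see the plot of states from start to end). Longer genes gave more bins to the parts of the body, while each gene gave about the same number of flank bins. Body and flank shares therefore weight the genes differently. In CH12 the L share was 75.4% in the first of 10 equal parts of the body, 82.0% in the third and 68.2% in the last. It was 59.4% in the flank 400 to 500 kb before the start and 54.9% at the same distance after the end. In priB the first, the fourth and the last part had 59.5%, 70.1% and 55.3%, and in MEF 41.2%, 52.6% and 37.1%. The E share in MEF was 13.3% in the first part, 6.03% in the fifth and 19.9% in the last, so the ends of the genes were more often E than their starts in that map.

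**Figure D3:**
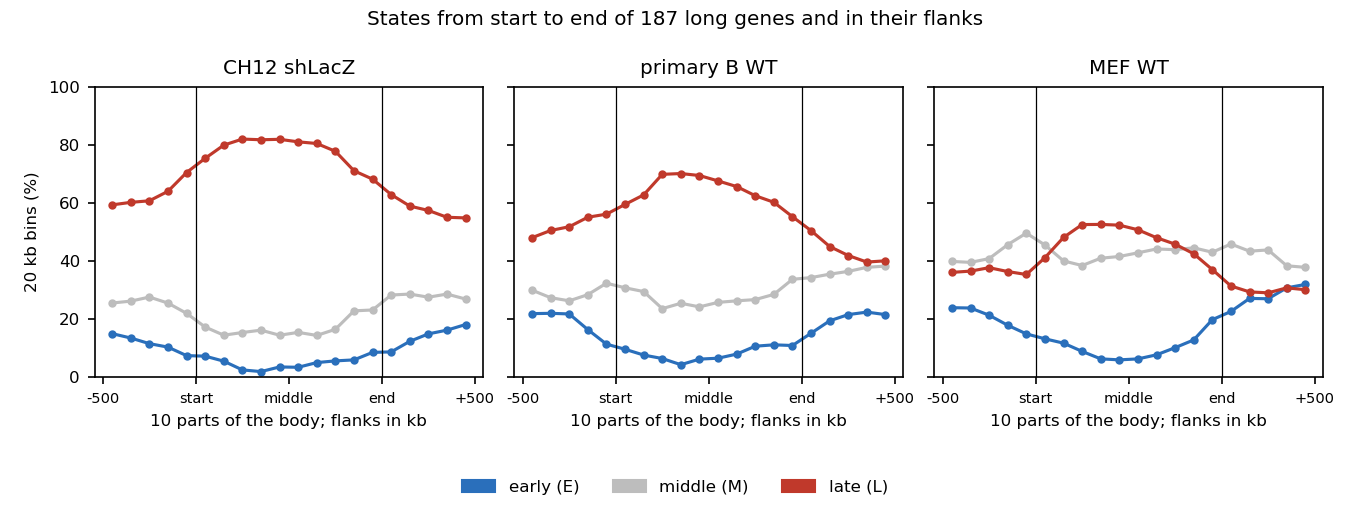
Share of 20 kb bins (%) in state E (blue), M (grey) and L (red) in 10 equal parts of the body and in 100 kb steps over 500 kb before the start and after the end, over 187 genes oriented on their own strand. The red line peaks inside the body, at 82.0% in CH12, 70.1% in priB and 52.6% in MEF, and is lowest or nearly so beyond the gene's end.

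In CH12 and MEF more genes had an earlier than a later state at the end, while in priB these counts were close. In CH12 the end was earlier in 37 genes, later in 22 and the same in 128. In priB these counts were 43, 38 and 106, and in MEF 47, 33 and 107. With a length limit of 750 kb, the end was earlier in 17 genes and later in 15 in CH12. In priB it was earlier in 21 and later in 20, and in MEF earlier in 26 and later in 14. The same counts were not made over all genes. The state at the start was L in 136 genes in CH12, 106 in priB and 68 in MEF. Of the genes that were mainly L, 24 of 153 in CH12, 25 of 121 in priB and 29 of 89 in MEF nevertheless had a start that was not L. In CH12, 15 genes (8.02%) were later inside than at both of their ends and 5 (2.67%) were earlier inside than at both ends, with 14 and 5 in priB and 25 and 3 in MEF. Of the 721 genes of 200 to 500 kb, 22 (3.05%) were later inside and 3 (0.42%) earlier inside in CH12. In priB these counts were 15 and 1, and in MEF 15 and 2, so later insides were also the more frequent kind in this shorter class.

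A full gradient across the body was rare. From an L start to an E end there were 4 genes in CH12, 9 in priB and 3 in MEF, and from an E start to an L end 1, 3 and 1. Only Dlgap1 and Csmd2 ran from L to E in all 3 maps, and none ran from E to L in all 3. Dlgap1, a scaffold of excitatory synapses (852 kb, chr17:70318413-71170753), had 540 kb of L, 200 kb of M and 120 kb of E in CH12, and 420, 260 and 180 kb in priB. In MEF its L part was 80 kb, its M part 480 kb and its E part 300.0 kb. Csmd2 (580 kb, chr4:127665101-128244903), a relative of Csmd1, had 160, 300.0 and 120 kb of L, M and E in CH12, 180, 280 and 120 kb in priB, and 200, 360 and 20 kb in MEF.

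The genes with the most edges differed between maps. In CH12, after Fgfr2, only Agbl4 (a carboxypeptidase that acts on tubulin), Etl4 and Zbtb20 held over 2, with 3 each, and 22 genes held 2. In priB Fgfr2 held 4, and Gm20388, Magi2, Agbl4 and Anks1b held 3. Agbl4 ran through 660 kb of L, 220 kb of M, 180 kb of E and 200 kb of M in CH12, and had the same order of states in priB with 480, 340, 380 and 60 kb. In MEF it had 1040 kb of L and 220 kb of M. Magi2, a synaptic scaffold, went from L to M and back in priB, with stretches of 600, 300.0, 120 and 460 kb, and held 1 edge in CH12 and 1 in MEF. In MEF Pde4d held 4, and 5 genes held 3: Auts2, Sgcd, Rbms3, Cdh13 and Sdk1, the last named for this tie after its value was seen. Pde4d, a cAMP phosphodiesterase (1504 kb), held E at 3 places of its body in MEF, of 300.0, 300.0 and 80 kb, with M between them.

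CH12 and priB cells gave the same state to 79.2% of the bins of long genes (76.2% over all autosomal bins). In priB 18.6% of bins were earlier than in CH12 and 2.18% were later, against 20.1% and 3.67% over the autosomes. By main state, 39 of 186 genes with a main state in both maps were earlier in priB (21.0%, interval 15.7 to 27.4%), close to the 18.2% of all genes. Only Etl4 was later (0.54%, against 2.82%). Genes and bins that start from L cannot move later, and 153 of 187 long genes were mainly L in CH12. The low shares that were later are therefore limited by the starting state. Of the bins E in CH12, 84.9% stayed E in priB over long genes, against 90.8% over all autosomal bins. Without the 3 models that hold other genes, 63.5% stayed E. Genes that start from E cannot move earlier, and long genes were seldom E, so genes of the same starting state were also set side by side. Of the genes mainly L in CH12, 32 of 152 long genes were earlier in priB (21.1%, interval 15.3 to 28.2%), against 1958 of 4547 over all genes (43.1%) and 127 of 311 genes of 200 to 500 kb (40.8%). The interval of the long genes lay below both of these shares. The difference itself was not tested, since neighbouring genes share domains and are not independent.

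The 5 genes with the largest net share of bins earlier in priB were Arhgap26, Kalrn, Syne1, St6galnac3 and Lrba. The net share is the share of bins that were earlier minus the share that were later. Arhgap26, a GTPase-activating protein (775 kb, chr18:38761188-39535938), was M in all 39 bins in CH12 and E in all of them in priB. Kalrn, a guanine nucleotide exchange factor (599 kb, chr16:33974344-34573618), had 380 kb of L and then 220 kb of M in CH12, and 360 kb of M and then 240 kb of E in priB. Syne1, a nesprin of the nuclear envelope (530 kb), and St6galnac3, a sialyltransferase (520 kb), were wholly L in CH12 and wholly M in priB. Lrba, which acts in vesicle traffic of immune cells (558 kb, chr3:86028602-86586615), was M but for its first 20 kb in CH12 and E throughout in priB. In the first 4 every bin was earlier, and in Lrba 96.4% were.

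The 5 genes with the largest net share later in priB moved over part of the body only. Etl4 (901 kb) had a net share of -55.6%. It was L, M, E and M in CH12, in stretches of 280, 240, 100 and 280 kb, and in priB it was M for 120 kb and then L for 780 kb. Cdk14, a cyclin-dependent kinase (617 kb), was wholly M in CH12 and ended in 280 kb of L in priB. Gpc6, a glypican (1054 kb), and Fgf14, which binds sodium channels (699 kb), lost their M ends of 420 and 260 kb and were L throughout in priB. Cdkal1, a tRNA-modifying enzyme (664 kb), ended in 240 kb of E in CH12 and in M in priB. Over all 187 genes the net share was earlier in priB for 97, later for 16 and 0 for 74, which were the 74 genes with the same state in every bin. These counts were not made over all genes. Over all autosomal bins 20.1% were earlier in priB and 3.67% later, and bins that are L in CH12 cannot be later.

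**Figure D4:**
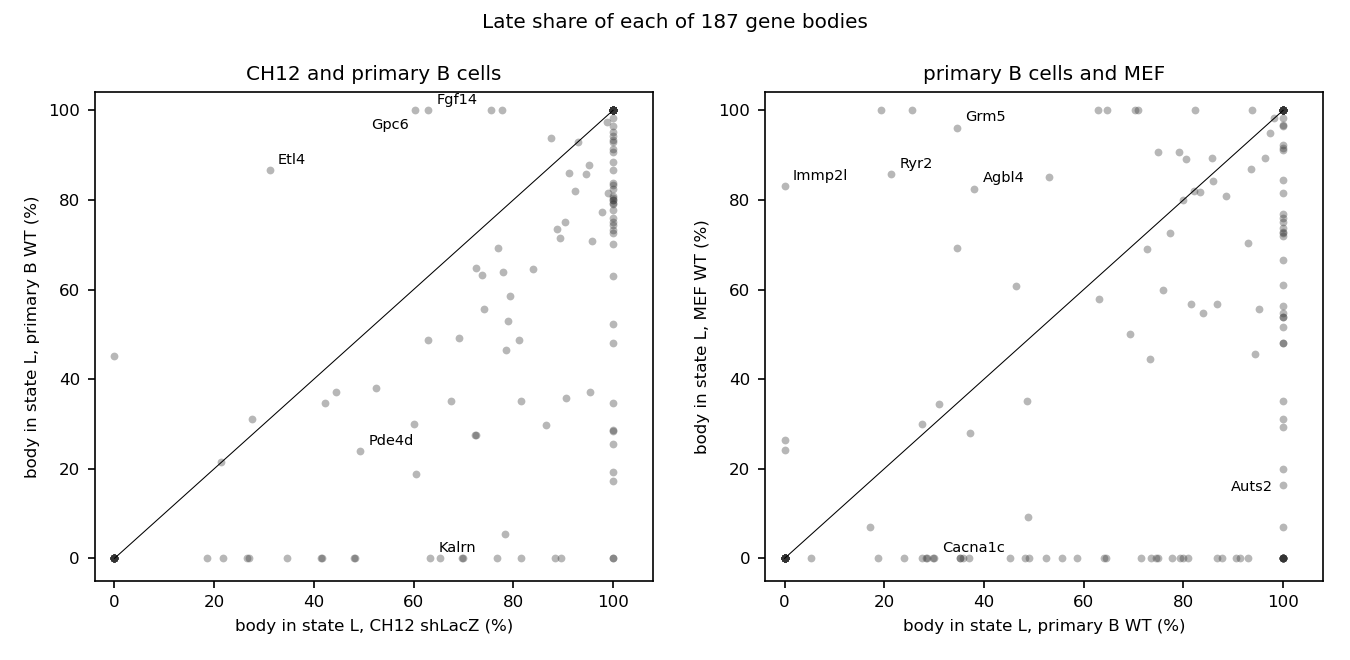
Share of each gene body in state L (%), 1 point per gene for 187 genes, for CH12 shLacZ against primary B WT (left) and primary B WT against MEF WT (right); the line marks equal shares and points overlap at 0 and 100%. On the left most points off the line lie below it, with Etl4 above; on the right Ryr2, Grm5, Immp2l and Agbl4 lie above it and Cacna1c on the floor below it.

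In MEF 36.1% of the bins of long genes were earlier than in CH12 and 2.68% later, against 31.8% and 5.46% over the autosomes. Set against priB, 26.1% were earlier and 7.50% later, against 21.8% and 9.66%. The main state was earlier in MEF than in both B cell maps for 45 of 185 genes (24.3%, interval 18.7 to 31.0%), against 11.5% of all genes, and later than in both for 1 gene, Ryr2 (0.54%, against 4.9%). A gene mainly L in either B cell map cannot be later in MEF than in both, so these later shares are limited by the starting state. Bins and genes that are E cannot be earlier in MEF, and long genes were seldom E, so the earlier shares depend on the starting state too. Of bins L in CH12, 58.2% stayed L in MEF over long genes, against 54.3% over all autosomal bins. Of bins L in priB, 66.5% stayed L in MEF, against 66.0%. Of bins E in CH12, 78.4% stayed E in MEF over long genes, against 85.1% over all autosomal bins. Of bins E in priB, 57.5% stayed E in MEF, against 79.7%. Without the 3 models that hold other genes, the shares that stayed E in MEF were 47.3% from CH12 and 30.7% from priB. The main state was L in all 3 maps for 82 of 185 genes (44.3%, interval 37.4 to 51.5%), against 7.88% of all genes. Of the long genes mainly L in both B cell maps, 38 of 120 were earlier in MEF (31.7%, interval 24.0 to 40.4%), against 35.3% of all such genes and 55.8% of those of 200 to 500 kb. The interval held the share of all genes and lay below that of the next shorter class, and the difference was not tested.

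In 11 genes every bin was earlier in MEF than in both B cell maps, and the 5 longest of these were Cdh18, Plcb1, Ptprm, Magi1 and Cacna1c. Cdh18, a cadherin (925 kb, chr15:22478777-23404173), and Ptprm, a receptor tyrosine phosphatase of cell contacts (688 kb), were wholly L in both B cell maps and wholly M in MEF. Plcb1, a phospholipase C (689 kb), and Magi1, a scaffold of cell junctions (608 kb), were wholly L in both B cell maps; in MEF Plcb1 was M with 60 kb of E at its end and Magi1 was M with 20 kb of E at its start. Cacna1c, the pore of an L-type calcium channel (604 kb, chr6:118542314-119146249), had M at both ends and 360 kb of L inside in CH12 and 180 kb of L inside in priB, and was E throughout in MEF. In all, 65 genes were wholly L in both B cell maps, and 39 of them held an earlier bin in MEF, of which 5 were wholly M and 5 held E.

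The 5 genes that were latest in MEF relative to both B cell maps were Ryr2, Grm5, Zbtb20, Arhgap15 and Agbl4. Ryr2, the calcium release channel of heart muscle (554 kb, chr13:11645370-12199212), had 440 kb of M and 120 kb of L in both B cell maps, and 80 kb of M and 480 kb of L in MEF. Grm5, a glutamate receptor (532 kb), ran from L through M to E in CH12 and in priB, and was L but for its last 20 kb in MEF. Zbtb20, a zinc finger repressor (767 kb), was M and E in B cells and M throughout in MEF. Arhgap15, a GTPase-activating protein of Rac (647 kb), started in M in CH12 and in E in priB, whereas its first 160 kb were L in MEF. By net share, 105 genes were earlier in MEF than in both B cell maps and 16 later. These counts were not made over all genes. Over all autosomal bins 31.8% were earlier in MEF than in CH12 and 5.46% later, and 21.8% were earlier than in priB and 9.66% later. A bin that is L in a B cell map cannot be later in MEF.

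**Figure D5:**
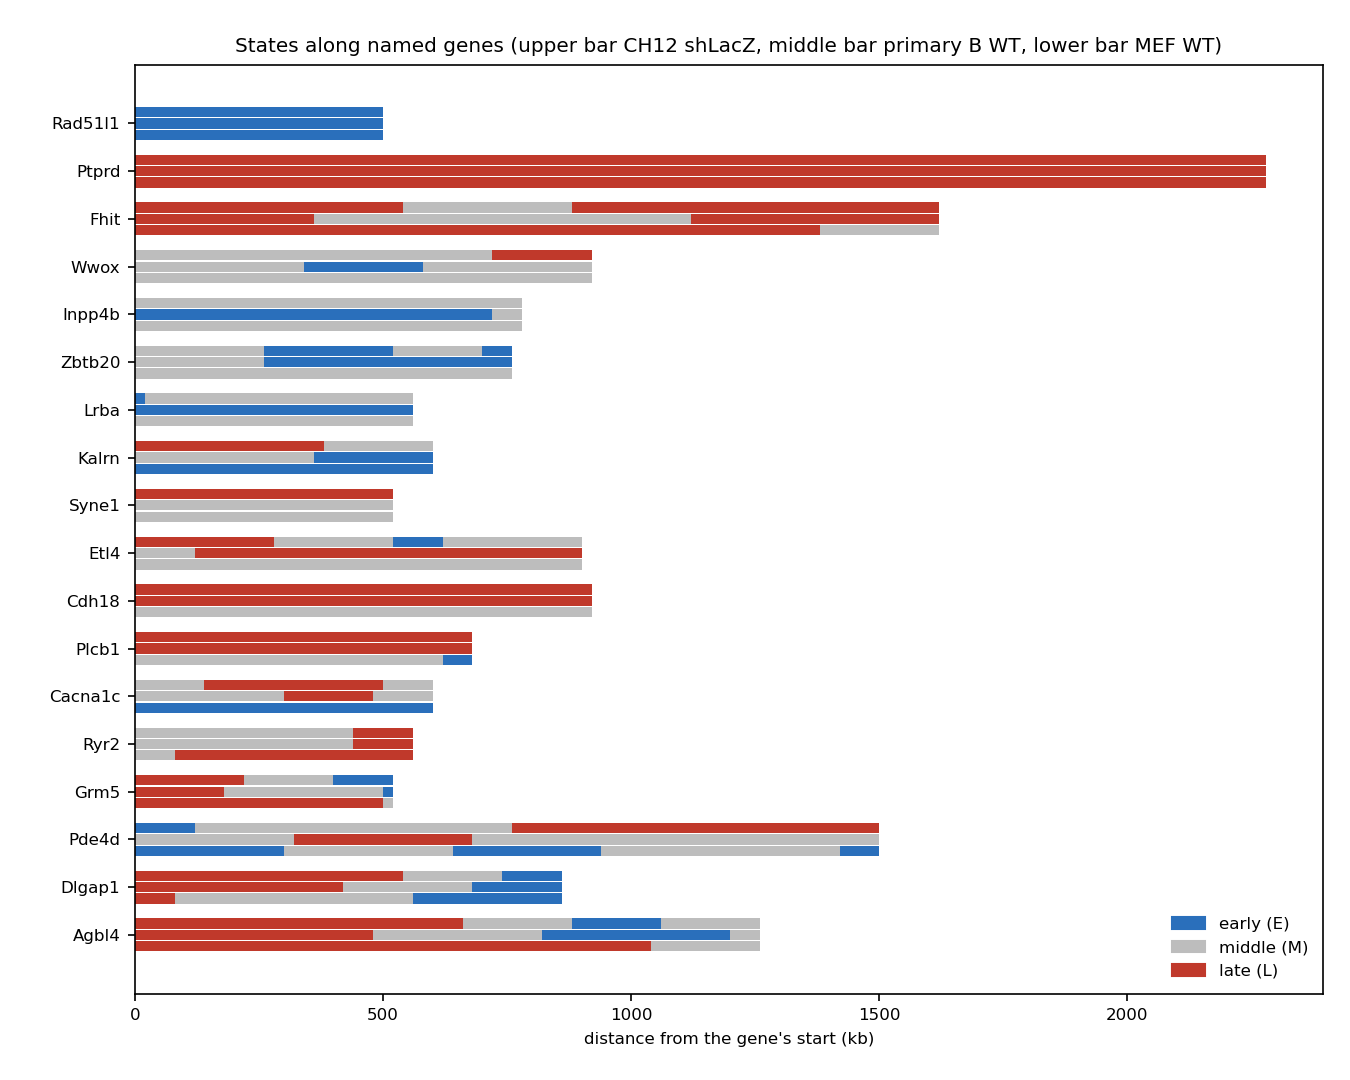
States along 18 named genes by distance from the gene's start (kb), with E in blue, M in grey and L in red and 1 bar per map (upper CH12 shLacZ, middle primary B WT, lower MEF WT). Rad51l1 is blue and Ptprd red in all 3 bars; Inpp4b and Lrba are blue in the middle bar, while Cacna1c and Kalrn are blue throughout in the lower bar.

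The 16 members listed for common fragile sites had L as the main state in 15 of 16 in CH12, beside 81.8% over all members. The list held members only and includes several of the longest, such as Cntnap2, Lrp1b, Macrod2, Dlg2 and Fhit. The comparisons with all members were not matched for length. Wwox was the exception, with 720 kb of M before 200 kb of L. In priB 13 of 16 were mainly L, beside 64.7% over all members, and in MEF 9 of 16, beside 47.6%. The median L share of the body was 96.8% in CH12, 83.9% in priB and 69.4% in MEF, against medians of 100%, 80.0% and 35.2% over all 187 genes. Lrp1b, Dab1, an adaptor of reelin signalling, and Dpyd, an enzyme of pyrimidine breakdown, were L in every bin of the 3 maps. Macrod2 was L in every bin of both B cell maps.

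Others of the fragile site list changed between maps. Immp2l, a peptidase of the mitochondrial inner membrane (1306 kb, chr12:41750677-43056575), was L for 1060 kb in CH12 and 1080 kb in MEF, and had no L bin in priB, where it was E for 80 kb and M for 1220 kb. Wwox (913 kb, chr8:116963555-117876608) gained 240 kb of E inside its body in priB and was M throughout in MEF. Ctnna3, an alpha catenin (1574 kb), had an earlier start in each map, of 120 kb of M in CH12, 40 kb of E and 240 kb of M in priB, and 280 kb of M in MEF. Park2, the ubiquitin ligase parkin (995 kb), was L for 780 kb in CH12 and 640 kb in priB and had no L bin in MEF. Auts2 (1106 kb) and Nbea, neurobeachin (558 kb), were wholly L in both B cell maps, and in MEF Auts2 kept 180 kb of L and Nbea none. Rora was L for 580 kb in CH12 and for 40 kb in priB, and Large, a glycosyltransferase, for 400 and 300.0 kb; in MEF both had no L bin.

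The 9 members listed for roles in blood cells had L as the main state in 3 of 9 in CH12 (81.8% over all members), 1 of 9 in priB (64.7%) and 0 of 9 in MEF (47.6%). The 3 in CH12 were Pde4d, Rora and Mecom, and the 1 in priB was Mecom, a transcription factor of blood stem cells, which was wholly L in CH12, L for 460 of 580 kb in priB and wholly M in MEF. E was the main state of 3 of 9 in priB. Inpp4b, a phosphatase of phosphoinositides (782 kb, chr8:83866455-84648935), was wholly M in CH12 and MEF, and E for its first 720 kb in priB. Zbtb20 held 260 and 60 kb of E in CH12 and 500 kb in priB. Celf2, a splicing factor (542 kb), ended in 200 kb of E in CH12, 360 kb in priB and 40 kb in MEF. Pde4b, another cAMP phosphodiesterase (520 kb), started with 180 kb of L in CH12 and ended in 240 kb of E in priB. Elmo1, a partner of Dock proteins in Rac activation (516 kb), lost 140 kb of L inside its body and gained 140 kb of E at its start in priB. Transcription was not measured in these maps.

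By gene family, L was the main state of 46 of the 50 adhesion genes in CH12, 41 in priB and 34 in MEF, and 32, 28 and 17 of them were wholly L. Over all members the mainly L shares in the 3 maps, in this order, were 81.8%, 64.7% and 47.6%. Of the 23 genes in the list of channels and receptors, 20, 17 and 14 were mainly L. This list is broad and also holds genes that are neither, such as Atp8a2 and Galntl6. Of the 28 genes of intracellular signalling and scaffolds, 19, 13 and 9 were mainly L. Of the 13 transcription and RNA-binding factors, 10, 8 and 3 were mainly L, and of the 14 genes with roles in most cells 7, 6 and 4. In priB 2 genes were mainly E in each of the signalling, transcription and most cells lists, and none in the adhesion and channel lists. The median L share of the body in MEF was 73.9% for adhesion genes and 73.7% for the channel and receptor list. It was 0% for the signalling, transcription and most cells lists, and 35.2% over all members. These lists share genes and are not exhaustive, and 60 members were in none of them.

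Over the 3 maps the main states fell into few patterns. Besides the 82 genes that were L in each, 37 were L in both B cell maps and M in MEF, 21 were L in CH12 and M in the other maps, and 20 were M in each. The 6 genes that were M in CH12, E in priB and M in MEF were Inpp4b, Zbtb20, Mast4, Rabgap1l, Lrba and Celf2. Mast4 and Rabgap1l were named after their values were seen. The pattern L in CH12, M in priB and E in MEF had 5 genes, among them Kalrn and Cacna1c. E in all 3 was the pattern of Rad51l1 and of the Gm20388 model alone.

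GC content and CG at the start were not used by the length rule. GC content of the body was lower in mainly L than in mainly M genes, with a median of 39.7% in the 153 genes mainly L in CH12 and 41.9% in the 32 mainly M. In MEF the medians were 38.2% in mainly L, 41.4% in mainly M and 45.5% in mainly E genes, whereas in priB the 9 mainly E genes (40.2%) lay between the mainly L (39.0%) and the mainly M genes (41.9%). Across the 184 genes that hold few others, GC content and the L share had a Spearman coefficient of -0.39 in CH12, -0.46 in priB and -0.55 in MEF, again over genes that share each map. Starts with at least 10 CG in the 250 bases before them were L in 67.0% of 109 genes in CH12, 49.5% in priB and 31.2% in MEF. Starts with fewer were L in 80.8%, 66.7% and 43.6% of 78 genes. The CG count and the L share of the whole body had a Spearman coefficient between -0.14 and -0.07 in the 3 maps.

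The members lay on all 19 autosomes, from 2 on chromosome 18 to 18 on chromosome 1. L was the main state of most members on each chromosome in CH12 except 13 and 18, with 6 of 12 and 1 of 2. On chromosome 13, 1 of 12 was mainly L in priB and 3 of 12 in MEF. On chromosome 14 mainly L genes numbered 14 of 15 in CH12, 13 in priB and 5 in MEF.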

How the data were processed

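Repli-seq libraries from early and late S phase were processed by the authors, per their methods and the labels, with Trim Galore 0.6.5, BWA 0.7.17 to mm9 and SAMtools 1.9 for unique alignments. Replicates were merged, and duplicates were dropped. The methods describe Repli-seq replicates as separate sorts of a sample and, for sequencing in general, CH12 replicates as separately thawed vials, so how independent they were is not settled. In windows of 20 kb, early over late reads (log2) were loess smoothed over a span of many windows, which blurs edges, and segmented into 3 states by a hidden Markov model. Edges, stretches of a few bins and the states of end bins are therefore placed less finely than 20 kb. The deposited files hold domains with a state number and no RT value, so read depth and replicate spread are unknown here.

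The files do not name the numbers. The names E, M and L were given with the rule for the genes and were then checked. In each map M was the state that touched both others, and E had more gene starts per Mb than L. In CH12 the E, M and L densities were 18.9, 8.45 and 3.79 per Mb, and in MEF 16.1, 6.25 and 3.34. No E domain touched an L domain. Chromosome lengths matched mm9 in each map. Gene lists and members were chosen with earlier results of these data known.

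Genes came from GENCODE M1. Bins were assigned by their centers, and edges are changes between neighbouring bins. The genes named were the 10 longest, all members of the fragile site and blood lists, the 5 longest of each class in 1 state in all 3 maps, the 5 with the largest net shares between maps in each direction, the 5 with most edges per map, and those that ran from E to L or L to E; others are said to be named otherwise. A gene and a start sequence that this rule gives are not reported here. Functions were checked on maps with known states. Shares have Wilson 95% intervals. Alternatives were length limits of 400, 750 and 1000 kb, coding span, bin rules, boundary bins, short domains and Lpp. Scripts used Python 3.11.15, numpy 2.4.6, pandas 2.3.3 and scipy 1.17.1.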

Additional observations from a re-analysis of the deposited data

How the results depend on the processing

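No paired analysis was possible because the authors merged the numbered replicates before the states were called. A share was taken as moved where it left the Wilson 95% interval of its main value with 187 genes as the units, and a density of edges where it changed by over 1.5 times. Of 327 alternative values for 30 results, 293 did not move. None moved with a limit of 400 or 750 kb, with length taken as coding span (154 genes), with Lpp, without bins of unknown bases, with every bin touched, or with domains under 100 kb joined to a neighbour; no member overlapped another, so leaving out overlapping members changed nothing. In MEF the 0.90 edges per Mb became 0.78 at 750 kb and 0.82 at 1000 kb, from above to below the 0.83 of the autosomes. With the 48 genes of 1000 kb or more, M fell to 10.9% of bins in CH12, 19.9% in priB and 29.5% in MEF, L was 57.1% in MEF, 75.0% of genes held over 1 state in MEF and 37.5% had an earlier end there. In the same genes 85.6% of bins had the same state in CH12 and priB, 12.7% were earlier in priB, 69.5% had the same state in CH12 and MEF, and 28.3% were earlier in MEF. Without bins within 100 kb of a boundary, which by construction removes the bins around edges, M was 11.0%, 15.1% and 33.6% and L 84.2%, 77.6% and 58.8% of bins in CH12, priB and MEF. Over 1 state was then left in 17.4%, 19.6% and 27.7% of genes. Of the genes whose end bins were left, a later end was seen in 1.96% in CH12 and 7.84% in priB, and an earlier end in 5.88%, 7.84% and 15.7% in CH12, priB and MEF. Bins with the same state were 88.9% for CH12 and priB, 71.5% for CH12 and MEF and 73.9% for priB and MEF, with 10.1% earlier in priB than in CH12, 27.7% earlier and 0.78% later in MEF than in CH12, and 3.77% later in MEF than in priB. Leaving out the 3 gene models that hold 5 or more other genes, an alternative chosen after seeing the data, gave E shares of 1.94%, 4.89% and 6.60%. The depth of the maps is unknown, and shares of states cannot show changes of RT within a state.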
